A study of Homo sapiens with 12 samples.

Results

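The proteasome genes of HepG2 cells were followed over 4 time points of exposure to the herbicide 2,4-D. They were taken as all genes of the deposited count table whose symbol begins with PSMA, PSMB, PSMC, PSMD, PSME, PSMF or PSMG and ends in a number, with at least 100 counts over all libraries. Of the 60612 gene rows, 48 carried such a symbol and 46 passed the count minimum. PSMA8 and PSMB11, the testis and thymus forms of core subunits, had 0 counts in every library. The choice used symbols and total counts, and all 46 genes were also among the 17779 that had enough counts to be tested.

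HepG2 is an established line from a human liver tumour that keeps many hepatocyte functions, and 2,4-D (2,4-dichlorophenoxyacetic acid) is a synthetic auxin used against broad-leaved weeds. Polyadenylated RNA was sequenced from 3 biological replicates at each time. Cells were untreated (0 min) or had been in 0.001 µM 2,4-D for 10 min, 30 min or 360 min. All groups are the same single line, and the exposed groups share 1 nominal concentration. The only untreated libraries used are those of 0 min, so exposure and elapsed time cannot be told apart in any comparison.

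Library totals ran from 29.8 to 83.5, in units of 1e6 counts. The 10 hepatocyte markers examined were all expressed, from 24.3 CPM (counts per 1e6 counts) for FGB upwards, while of the markers of leukocytes, fibroblasts and endothelium PTPRC, COL1A2, DCN and KDR had 0 counts. LYZ and CD68, listed for macrophages, were present at 1710 to 1930 CPM and 48.9 to 63.8 CPM, PDGFRB at 1.91 to 3.57 CPM, and the others reached at most 1.74 CPM, the highest value of PECAM1. The libraries fell into 2 sets by how many of their counts were mitochondrial. This share was 3.55% to 4.39% in 7 libraries (0 min replicate 1, all of 10 min, 30 min replicates 2 and 3, and 360 min replicate 3) and 2.52% to 2.74% in the other 5. The labels give no batch that corresponds to these sets, and results are given for each set where they rest on it.

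The proteasome is the barrel-shaped protease that breaks down proteins tagged with ubiquitin. Its 20S core holds rings of alpha subunits, which form the gate, and rings of beta subunits, of which PSMB5, PSMB6 and PSMB7 carry the active sites. The 19S regulatory particle sits on the gate: its base contains a ring of ATPases (the PSMC genes) that unfold substrates, and its lid removes ubiquitin. Other members swap the catalytic subunits (PSMB8, PSMB9, PSMB10), replace the 19S cap (PSME1 to PSME4) or inhibit the core (PSMF1). The PSMG genes help assemble the core, and PSMD5, PSMD9 and PSMD10 the 19S base. In mammals, loss of proteasome activity is met by joint transcription of its subunit genes through the factor NRF1 (NFE2L1), which acts at antioxidant response elements, whereas interferon induces the swapped catalytic subunits and PSME1 and PSME2.

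Because these genes are known for shared promoter elements, the sequences just upstream of 5 of them are shown. They are from RefSeq on GRCh38.p14 and cover the 120 bases before the RefSeq start of each gene, 5′ to 3′ on the gene's strand. PSMC6 and PSMC3 had the smallest p-values at 360 min, PSME4 was the only gene called there with an antioxidant element in these 120 bases, and PSMB10 and PSME2 are genes that interferon induces in other settings. Capitals mark matches, on either strand, to the antioxidant response element core TGACNNNGC, the CCAAT box or the interferon-stimulated response element core (TTTC and TTTC with 2 bases of any kind between them).
PSMC6 (chr14:52707080-52707199, plus strand): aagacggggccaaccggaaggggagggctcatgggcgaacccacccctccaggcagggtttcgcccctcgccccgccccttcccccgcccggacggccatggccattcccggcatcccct
PSMC3 (chr11:47426440-47426559, minus strand): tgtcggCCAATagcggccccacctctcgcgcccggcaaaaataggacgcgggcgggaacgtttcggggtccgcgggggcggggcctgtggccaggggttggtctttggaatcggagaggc
PSME4 (chr2:53970994-53971113, minus strand): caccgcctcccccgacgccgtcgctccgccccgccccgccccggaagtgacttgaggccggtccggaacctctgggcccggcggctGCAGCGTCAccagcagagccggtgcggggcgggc
PSMB10 (chr16:67936851-67936970, minus strand): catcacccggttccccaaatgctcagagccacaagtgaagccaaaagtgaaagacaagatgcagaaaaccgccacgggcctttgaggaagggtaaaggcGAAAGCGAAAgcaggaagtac
PSME2 (chr14:24146611-24146730, minus strand): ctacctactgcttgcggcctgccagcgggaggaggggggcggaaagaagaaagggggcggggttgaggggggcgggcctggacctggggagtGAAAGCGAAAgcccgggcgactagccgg
The PSME4 match begins 34 bases before the start, and those of PSMB10 and PSME2 lie 21 and 28 bases before it. PSMC6 had none of these matches in the bases shown, only GC boxes (GGGCGG or its reverse complement).

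Promoters from 250 bases before to 50 bases after the start were available for 40 of the 46 genes. The antioxidant core was found in 13 of them (32.5%), against 13.3% of all 35116 promoters of this length. It was present in 5 of 16 genes that were called higher at 360 min (31.2%) and in 8 of 24 that were not called (33.3%). The interferon-stimulated core was found in 6 proteasome promoters (15%), against 3.57% of all promoters; those genes were PSMB10, PSME2, PSMG4, PSME1, PSMA4 and PSMB4, of which PSMB4 alone was called at 360 min. CCAAT boxes stood in 45% of the proteasome promoters against 34.6% of all, and GC boxes in 67.5% against 45%. The AP-1 element TGACTCA was found in 1 proteasome promoter, that of PSMD9 (2.5%), against 4.95% of all. An antioxidant core that contains an AP-1 element (TGACTCAGC) was found in 0 of the 40, against 0.561% of all. These are matches of letters and not measured binding sites. The set of all promoters held every listed one of that length, whether or not its gene was expressed here. Each proteasome gene entered with 1 promoter, and base composition was not matched.

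After 360 min many genes of the 26S proteasome were slightly higher than at 0 min. The call was an adjusted p under 0.05 in edgeR's quasi-likelihood test, with Benjamini-Hochberg adjustment over all 17779 genes. Of the 46 genes, 17 were called higher (37%), against a background of 8.89% of all genes tested, and 0 were called lower, against 9.19% of all genes. At an unadjusted p under 0.05 the count of lower proteasome genes was also 0, against 15% of all genes, and DESeq2 and limma voom each called 0 lower as well. The increases of the called genes were 6% to 18% (log2 fold changes 0.09 to 0.24). In all 17 the 360 min libraries lay above every 0 min library, as they did in 18.3% of all genes tested. These 17 were called from the same libraries, so the separation of their groups is no further support, here or for single genes below. The median log2 fold change of the 46 genes was 0.089, beside 0.001 over all genes, and 38 of them (82.6%) lay above 0, beside 50.1% of all genes. Among the 9657 genes that averaged at least 10 CPM, a level that all proteasome genes but PSMB9 reached, 17 of 45 (37.8%) were called higher, against 14.1% of all.

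Together the 46 genes took 0.709% ± 0.00693 of all counts at 360 min (range 0.701% to 0.713%) and 0.669% ± 0.00503 at 0 min (range 0.664% to 0.674%; SD, n = 3 each). The groups did not overlap in this share. At 10 min it was 0.653% to 0.659%, below every 0 min library, and at 30 min 0.658% to 0.670%, overlapping those of 0 min. All 10 min libraries were of high mitochondrial share, but at 0 min only replicate 1 was (0.668%). Time and set can therefore not be fully told apart at 10 min. At 360 min the library of high share, replicate 3, had the lowest value (0.701%). Mitochondrial counts are part of the totals used.

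The number of called genes depended on every library of both groups. It was 9, 9 and 8 without 360 min replicates 1, 2 and 3, and 8, 11 and 10 without 0 min replicates 1, 2 and 3, whereas the median log2 fold change kept to 0.08 or 0.09. Calls over all genes fell as well, from 3215 with all libraries to between 2281 and 2714 without single replicates. Within the libraries of low mitochondrial share (2 at each time) 11 genes were called, with a median of 0.09 and 37 genes above 0. The matching counts over all genes are not given here, so the 11 and 37 cannot be set against a background. Libraries of high share numbered 1 at each time, too few for a count of calls to be read. The median there was 0.08, with 31 genes above 0. PSMC6, PSMC3, PSMD1, PSMD11 and PSME4 were called under 16 of 17 alternative analyses, the exception being that single pair.

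**Figure D1:**
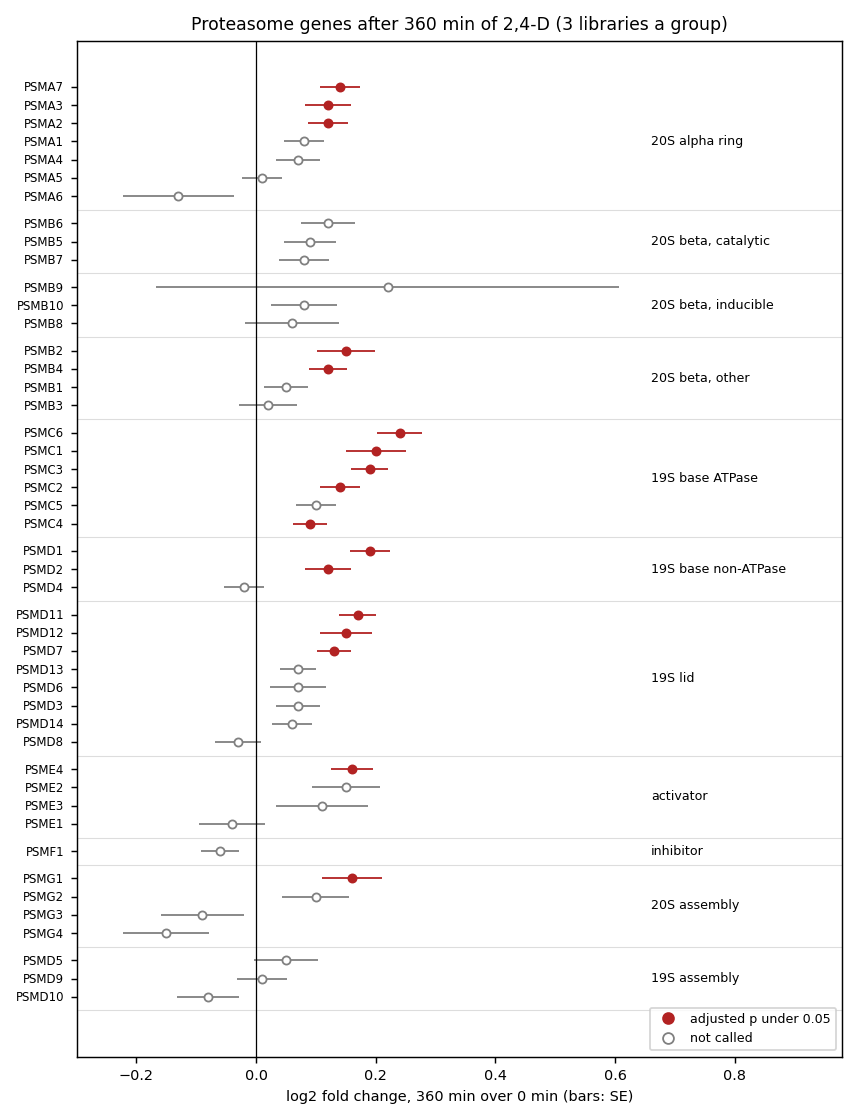
Log2 fold change of each of the 46 proteasome genes at 360 min over 0 min (x axis) with its SE as bars, grouped by role; filled red points were called at an adjusted p under 0.05. The 17 called genes lie between 0.09 and 0.24, and no gene was called on the left of 0.

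Among the role classes, all of them small, the ATPase ring of the 19S base had the highest share of called genes. Of its 6 genes edgeR called 5 higher, against 8.89% of all genes tested, and DESeq2 and voom each called 6. Differences between classes were not tested. All 6 ATPases lay above 0, with a median log2 fold change of 0.16. PSMC6 (chr14:52707172-52728587) showed the largest called change: it had 121, 127 and 127 CPM at 360 min, against 104, 107 and 107 CPM at 0 min (log2 fold change 0.24 ± 0.038 SE, adjusted p = 0.00093). PSMC3 (chr11:47418769-47426473), whose C-terminal tail docks into the alpha ring and helps open the gate, had 197, 191 and 204 CPM at 360 min, against 173, 172 and 174 CPM at 0 min (0.19 ± 0.031, adjusted p = 0.0011). Positions are on GRCh38 as annotated in GENCODE 29. Neither gene's groups overlapped, and the gap exceeded the spread within either group.

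PSMC1, another ATPase whose tail engages the gate, had 138, 137 and 140 CPM at 360 min, against 116, 124 and 122 CPM at 0 min (0.20 ± 0.050, adjusted p = 0.015). Its exons share 75.8% of their length with NRDE2 on the opposite strand, and whether counting used strand is not given. NRDE2 itself was called higher by a similar amount (0.19, adjusted p = 0.018), and reads of the 2 genes cannot be told apart here. PSMC2 had 136, 130 and 139 CPM at 360 min, against 122, 125 and 122 CPM at 0 min (0.14 ± 0.034, adjusted p = 0.015). PSMC5, the ATPase that was not called, had 236, 236 and 226 CPM at 360 min, against 221, 216 and 214 CPM at 0 min (0.10 ± 0.033, adjusted p = 0.053). Its groups did not overlap, and 19.5% of its exon length is shared with FTSJ3 on the opposite strand.

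PSMC4 lay below its 0 min level at 10 and 30 min and above it at 360 min, and of these differences only the last was called. It had 240, 241 and 238 CPM at 0 min, 222, 223 and 224 CPM at 10 min, 225, 227 and 222 CPM at 30 min and 251, 252 and 262 CPM at 360 min. The 10 and 30 min libraries all lay under the 0 min ones, but neither difference was called (−0.10 ± 0.028, adjusted p = 0.22 at 10 min; −0.09 ± 0.028, adjusted p = 0.24 at 30 min). The 360 min libraries all lay above the 0 min ones and this difference was called (0.09 ± 0.028, adjusted p = 0.042), although in only 5 of the 17 alternative analyses.

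Of the 3 members that are non-ATPase subunits of the base, PSMD1 and PSMD2 were called higher, against 8.89% of all genes tested. PSMD1 (chr2:231056864-231172827), a scaffold of the base, had 331, 339 and 332 CPM at 360 min, against 284, 294 and 298 CPM at 0 min (0.19 ± 0.033, adjusted p = 0.0014). PSMD2, the scaffold that receives shuttle factors and the deubiquitinase USP14, had 458, 467 and 474 CPM at 360 min, against 404, 449 and 431 CPM at 0 min (0.12 ± 0.039, adjusted p = 0.045). The groups were separate in PSMD1 and, by a narrower gap, in PSMD2, and PSMD2 was called in 5 of the 17 alternative analyses. PSMD4, the ubiquitin receptor of the base, was not called: it had 174, 166 and 168 CPM at 360 min, against 169, 178 and 167 CPM at 0 min (−0.02 ± 0.033, adjusted p = 0.79), and the groups overlapped.

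Of the 8 members in the lid, 3 were called higher, against 8.89% of all genes tested. PSMD11 (chr17:32444261-32483318), which clamps the regulatory particle to the core, had 184, 184 and 183 CPM at 360 min, against 164, 167 and 157 CPM at 0 min (0.17 ± 0.031, adjusted p = 0.0020). PSMD7, the partner of the deubiquitinase subunit, had 200, 204 and 204 CPM at 360 min, against 182, 190 and 183 CPM at 0 min (0.13 ± 0.028, adjusted p = 0.0069). PSMD12 had 143, 147 and 149 CPM at 360 min, against 133, 128 and 134 CPM at 0 min (0.15 ± 0.044, adjusted p = 0.029). In all 3 the groups were separate. Of PSMD7's exon length 30.7% is shared with AC009120.2 on the opposite strand, which averaged 6.46 CPM at 0 min. PSMD14, the deubiquitinase itself, was not called although its groups did not overlap (177, 171 and 174 CPM at 360 min, against 167, 169 and 166 CPM at 0 min; adjusted p = 0.29). PSMD3, PSMD6, PSMD8 and PSMD13 were not called either, with log2 fold changes of −0.03 for PSMD8 to 0.07 for PSMD13.

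**Figure D2:**
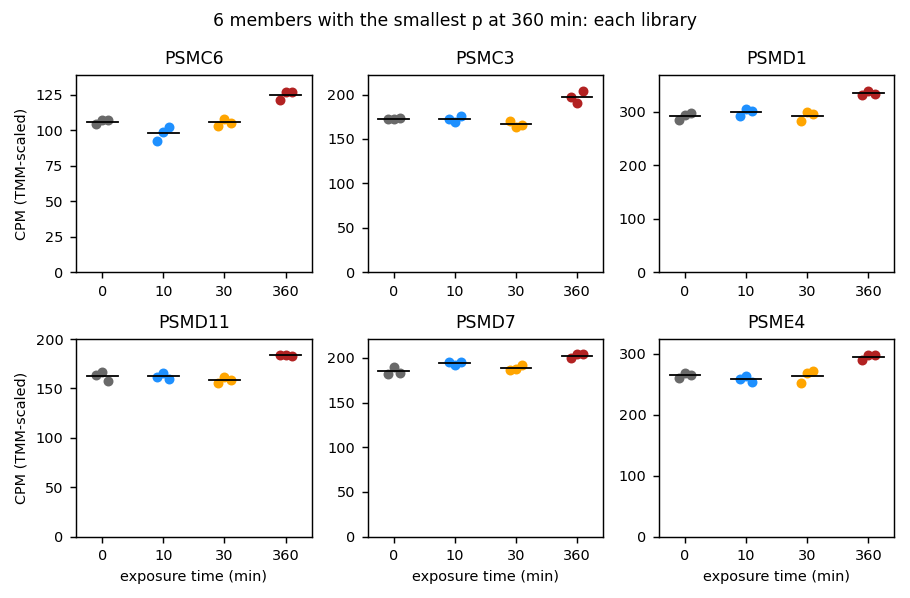
TMM-scaled CPM of the 6 proteasome genes with the smallest p at 360 min against 0 min, by exposure time in min (evenly spaced, not to scale); each point is a library, each line a group mean, and y axes start at 0. In each gene the 3 libraries of 360 min lie above all others, for example 121 to 127 CPM for PSMC6 against 104 to 107 CPM at 0 min.

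In the core, 5 of the 14 constitutive subunits were called higher, against 8.89% of all genes tested. In the alpha ring these were PSMA7, PSMA2 and PSMA3. PSMA7 (chr20:62136735-62143440) had the highest level per length of all proteasome genes and had 430, 425 and 411 CPM at 360 min, against 374, 397 and 379 CPM at 0 min (0.14 ± 0.034, adjusted p = 0.012). PSMA2 had 133, 134 and 135 CPM at 360 min, against 128, 121 and 119 CPM at 0 min (0.12 ± 0.034, adjusted p = 0.023). PSMA3 had 149, 146 and 151 CPM at 360 min, against 134, 137 and 140 CPM at 0 min (0.12 ± 0.038, adjusted p = 0.046). The groups were separate in all 3 genes; PSMA7 and PSMA2 were each called in 10 of the 17 alternative analyses and PSMA3 in 7. Of PSMA2's exon length, 19.5% and 14.6% are shared with other gene models, of which the tested one, AC010132.3, averaged 0.272 CPM at 0 min. The remaining alpha genes, PSMA1, PSMA4, PSMA5 and PSMA6, were not called, with log2 fold changes of −0.13 ± 0.093 for PSMA6 to 0.08 ± 0.034 for PSMA1.

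None of the genes for the 3 active sites was called at 360 min (0 in edgeR, DESeq2 and voom, and 1, PSMB6, at an unadjusted p under 0.05). Of all genes, edgeR called 8.89% higher, and with 3 genes a count of 0 cannot be told from that share. PSMB5, the chymotrypsin-like site, had 175, 172 and 161 CPM at 360 min, against 168, 157 and 153 CPM at 0 min (0.09 ± 0.044, adjusted p = 0.20). PSMB6, the caspase-like site, had 128, 119 and 127 CPM at 360 min, against 120, 115 and 109 CPM at 0 min (0.12 ± 0.045, adjusted p = 0.095). PSMB7, the trypsin-like site, had 177, 165 and 162 CPM at 360 min, against 162, 162 and 151 CPM at 0 min (0.08 ± 0.042, adjusted p = 0.20). All 3 estimates were positive and the groups overlapped in each. Within the libraries of low mitochondrial share PSMB5 was called (0.154, adjusted p = 0.029), and in the single pair of high share its value was −0.057.

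Of the 4 beta subunits without an active site, PSMB4 and PSMB2 were called higher, against 8.89% of all genes tested. PSMB4 had 188, 187 and 191 CPM at 360 min, against 168, 175 and 176 CPM at 0 min (0.12 ± 0.032, adjusted p = 0.015). PSMB2 had 180, 178 and 196 CPM at 360 min, against 170, 169 and 158 CPM at 0 min (0.15 ± 0.049, adjusted p = 0.046). The groups did not overlap in either gene, and PSMB4 was called in 12 and PSMB2 in 6 of the 17 alternative analyses. PSMB1 and PSMB3 were not called, with log2 fold changes of 0.05 ± 0.037 for PSMB1 and 0.02 ± 0.049 for PSMB3.

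The inducible catalytic subunits were expressed far below their constitutive partners and were not called at any time. At 360 min 0 of 3 were called by edgeR, DESeq2 or voom, and 0 had an unadjusted p under 0.05. Of all genes, edgeR called 8.89% higher and 9.19% lower, and 30.5% had an unadjusted p under 0.05. With 3 genes, a count of 0 cannot be told from those shares. PSMB8 had 14.1, 14 and 13 CPM at 360 min, against 13.1, 13.1 and 13.1 CPM at 0 min (0.06 ± 0.079, adjusted p = 0.68). PSMB10 had 14.9, 15.6 and 15.6 CPM at 360 min, against 14.9, 14.5 and 14.2 CPM at 0 min (0.08 ± 0.055, adjusted p = 0.34). Its groups did not overlap, by a gap smaller than the rounding (8.05 against 8.02 CPM per kb for the nearest libraries). PSMB9 was close to the limit of detection, with 0.452, 0.889 and 0.462 CPM at 360 min, against 0.670, 0.224 and 0.646 CPM at 0 min (0.22 ± 0.387, adjusted p = 0.77), and its sign reversed when single libraries were left out (−0.186 without 0 min replicate 2, −0.127 without 360 min replicate 2). PSMB8 shares 20.6% of its exon length with PSMB8-AS1 on the opposite strand, and PSMB10 shares 34.8% of its own with the gene model AC040162.1.

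Each inducible subunit takes the place of 1 constitutive one, and its share of the pair was computed from CPM per kb of exons. PSMB8 made up 4.51% to 4.56% of the PSMB8 and PSMB5 pair at 360 min, against 4.4% to 4.81% at 0 min. PSMB9 made up 0.166% to 0.351% of its pair with PSMB6 at 360 min, against 0.0915% to 0.278% at 0 min. PSMB10 made up 7.52% to 8.48% of its pair with PSMB7 at 360 min, against 7.91% to 8.34% at 0 min. The groups overlapped for every pair at 360 min. At 30 min the PSMB10 share was 8.51% to 8.91%, above all 0 min libraries. With the principal transcript of each gene as its length the PSMB8 share was 8.46% to 8.55% at 360 min, against 8.25% to 8.99% at 0 min, so the shares depend on the length used and the overlap does not.

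**Figure D3:**
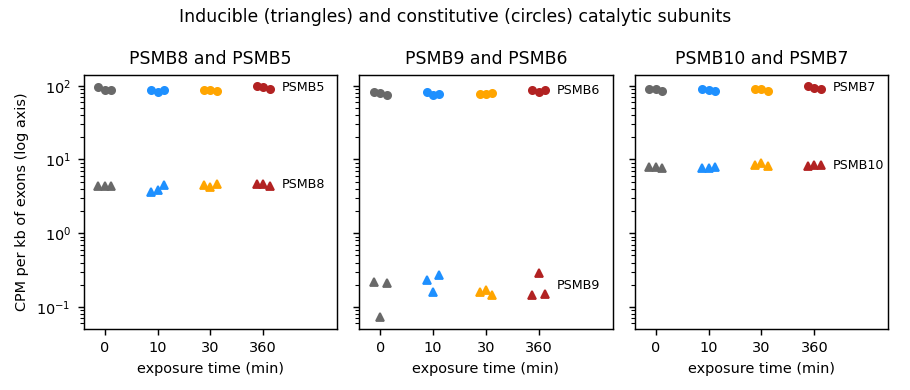
CPM per kb of exons (log axis) of each inducible catalytic subunit (triangles) and the constitutive subunit it replaces (circles), by exposure time in min (evenly spaced); each point is a library. PSMB8 and PSMB10 stay between 4% and 9% of their pairs at 0 and 360 min, and PSMB9 below 0.4%.

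Of the alternative caps, PSME4 (chr2:53864067-53970840), the single-chain activator PA200 known for its part in the breakdown of acetylated histones, was called. It had 289, 298 and 297 CPM at 360 min, against 260, 268 and 265 CPM at 0 min (0.16 ± 0.035, adjusted p = 0.0069), with no overlap. PSME2, which forms an interferon-inducible ring with PSME1, had 85.2, 81.6 and 80.0 CPM at 360 min, against 79.1, 73.1 and 70.3 CPM at 0 min (0.15 ± 0.057, adjusted p = 0.089). Its partner PSME1 had 77.7, 67.7 and 75.4 CPM at 360 min, against 78.5, 74.0 and 75.3 CPM at 0 min (−0.04 ± 0.055, adjusted p = 0.68). Neither partner passed the edgeR test, and the difference between them was not tested. PSME2 was called in 3 alternatives: with DESeq2 (adjusted p = 0.046), without 0 min replicate 1 (0.049) and within the libraries of low mitochondrial share (0.018). PSME3, a nuclear activator, had 205, 207 and 242 CPM at 360 min, against 213, 201 and 192 CPM at 0 min (0.11 ± 0.077, adjusted p = 0.38), and the groups overlapped. Of the 4 activators edgeR called 1 higher, against 8.89% of all genes tested, while DESeq2 called 2 and voom 1.

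PSMF1, the inhibitor PI31, had 159, 155 and 158 CPM at 360 min, against 159, 171 and 160 CPM at 0 min (−0.06 ± 0.032, adjusted p = 0.26). With PSMD10 it was 1 of 2 proteasome genes (4.35%) whose 360 min libraries all lay under the 0 min ones, against 17.3% of all genes; 24 (52.2%) lay wholly above, against 18.3% of all genes. PSMD10, an assembly chaperone of the base also known as gankyrin, had 29.7, 29.8 and 30.7 CPM at 360 min, against 31.4, 32.1 and 31.7 CPM at 0 min (−0.08 ± 0.052, adjusted p = 0.35). PSMD5 and PSMD9, which also help assemble the base, had log2 fold changes of 0.05 and 0.01 and were not called. Among the assembly factors of the core, PSMG1 was called, with 72.8, 72.1 and 76.4 CPM at 360 min, against 66.4, 66.2 and 66.0 CPM at 0 min (0.16 ± 0.050, adjusted p = 0.046), and it was called in 7 of the 17 alternative analyses. PSMG2, which pairs with PSMG1, was not (0.10 ± 0.056, adjusted p = 0.25), nor were PSMG3 (−0.09 ± 0.069, adjusted p = 0.44) and PSMG4 (−0.15 ± 0.072, adjusted p = 0.20).

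Counted by structure, 15 of the 31 members that are constitutive subunits of the 26S particle were called higher. Of these 31, 28 lay above 0, with a median log2 fold change of 0.10. Of the other 15 members, which are the inducible subunits, activators, the inhibitor and assembly factors, 2 were called and the median was 0.06. Over all genes 8.89% were called higher, and the difference between these sets of members was not tested. The base had 7 called of 9 and the whole regulatory particle 10 of 17. The summed level of the ATPases per kb was 322 ± 6.11 at 360 min and 293 ± 1.15 at 0 min (CPM per kb of exons, SD, n = 3 each). That of the lid was 287 ± 2.65 at 360 min and 271 ± 4.36 at 0 min, and that of the alpha ring 447 ± 5.51 at 360 min and 417 ± 5.69 at 0 min. The 360 min libraries lay above the 0 min libraries in all 3 sums. For the 3 active sites the sum was 276 ± 8.72 at 360 min and 258 ± 11.5 at 0 min, with a range of 270 to 286 at 360 min and of 246 to 269 at 0 min, so that the groups were barely separate. The sum of the inducible subunits was 12.9 to 13.4 at 360 min and 12.3 to 12.6 at 0 min, without overlap. At 30 min it was 12.9 to 13.2, also above every 0 min library. The sum of the activators overlapped, with 130 to 141 at 360 min and 125 to 133 at 0 min.

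**Figure D4:**
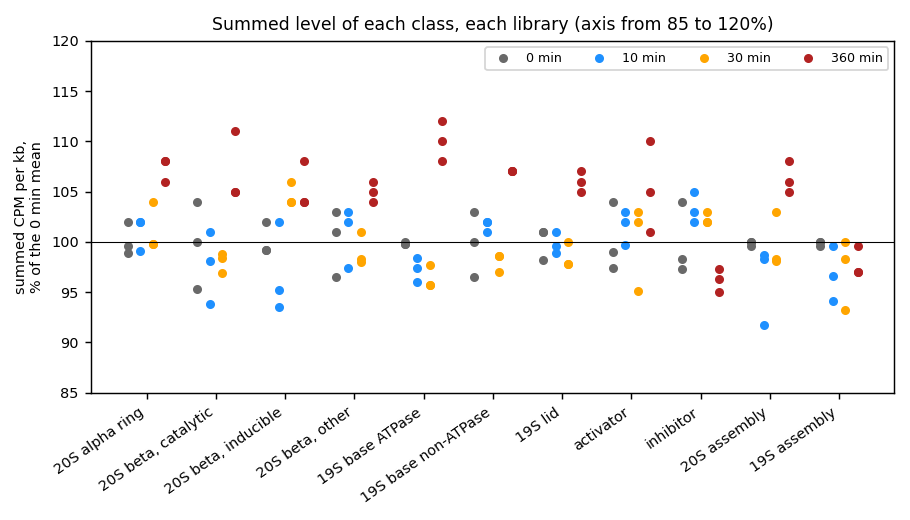
Summed CPM per kb of exons of each role class in every library, as a percentage of that class's mean at 0 min, by class (x axis) and exposure time (colour); the y axis runs from 85% to 120%. The ATPase sum at 360 min lies at 108% to 112%, and that of the inhibitor at 95.0% to 97.3%.

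Short exposures left the proteasome genes near their 0 min levels. At 10 min 0 of 46 were called, against 0.0169% of all genes, and 4 (8.7%) had an unadjusted p under 0.05, against 10.9% of all; DESeq2 and voom called 0. The smallest p-values belonged to PSMC4, PSMC6 and PSMD7. PSMC6 had 92.3, 98.9 and 102 CPM at 10 min, against 104, 107 and 107 CPM at 0 min (−0.11 ± 0.039, adjusted p = 0.32), below without overlap, and PSMD7 had 195, 192 and 196 CPM at 10 min, against 182, 190 and 183 CPM at 0 min (0.07 ± 0.029, adjusted p = 0.39), above without overlap. The median log2 fold change at 10 min was −0.007, beside −0.003 over all genes.

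At 30 min 0 of 46 were called, against 0.765% of all genes, and 1 (2.17%), PSMC4, had an unadjusted p under 0.05, against 9.29% of all; DESeq2 and voom called 0. Next in order of p came PSMD3, with 207, 199 and 204 CPM at 30 min, against 217, 216 and 212 CPM at 0 min (−0.08 ± 0.037, adjusted p = 0.56), and PSMD8, with 159, 164 and 154 CPM at 30 min, against 175, 169 and 159 CPM at 0 min (−0.08 ± 0.038, adjusted p = 0.57). PSMD3 lay below its 0 min libraries and PSMD8 overlapped them. The median was −0.011, beside 0.003 over all genes. Between 30 and 10 min 0 members were called by edgeR, against 0.574% of all genes, and 2 (4.35%), PSMC6 and PSMD12, had an unadjusted p under 0.05, against 11.9% of all; DESeq2 and voom called 0.

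Set against 30 min, 16 proteasome genes were higher at 360 min (34.8%), against 11.4% of all genes, and 0 were lower, against 11.3% of all. PSMF1 alone had an unadjusted p under 0.05 in the lower direction (2.17% of members, against 17.1% of all genes), with 159, 155 and 158 CPM at 360 min, against 166, 169 and 167 CPM at 30 min (−0.09, adjusted p = 0.055), and DESeq2 and voom each called 1 gene lower. This comparison shares the 360 min libraries with the one against 0 min; 12 genes were called in both, which is 12 of 16 here and 12 of 17 there. PSMC3 had 197, 191 and 204 CPM at 360 min, against 170, 164 and 166 CPM at 30 min (0.24, adjusted p = 0.00012). PSMC5 (0.16, adjusted p = 0.0039), PSMD3 (0.15, adjusted p = 0.012), PSMB5 (0.15, adjusted p = 0.030) and PSMB6 (0.15, adjusted p = 0.032) were called here and not against 0 min. The last 2 carry active sites. Within the libraries of low mitochondrial share (2 at 360 min and 1 at 30 min) 10 genes were called higher, and within those of high share (1 at 360 min and 2 at 30 min) 1 was. The lone library of each set is assumed to vary like the others.

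At 0 min the levels per length differed widely between members. Per kb of exons, PSMA7 had the highest level (219 ± 6.9 CPM per kb) and PSMB1 the next (127 ± 3.6), with no overlap between them, and PSMB9 had the lowest (0.167 ± 0.082). The constitutive core subunits spanned 20 to 219 CPM per kb with a median of 68.3. Constitutive regulatory particle subunits among the members spanned 10.8 to 100, with a median of 43.2. With the principal transcript as the length these spans were 37 to 385 for the core and 27.1 to 151 for the regulatory particle, and PSMA7, PSMB1 and PSMB9 kept their places in the order.

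Among 12 proteasome subunits and partners whose symbols follow another pattern, 3 were called higher at 360 min (8.89% of all genes were). TXNL1, a thioredoxin bound to the lid, had 76.2, 78.8 and 76.3 CPM at 360 min, against 65.6, 64.0 and 67.1 CPM at 0 min (0.23 ± 0.048, adjusted p = 0.0047). ADRM1, a ubiquitin receptor of the base, had 333, 332 and 341 CPM at 360 min, against 310, 292 and 294 CPM at 0 min (0.17 ± 0.035, adjusted p = 0.0052), and USP14, the deubiquitinase on PSMD2, had 139, 141 and 147 CPM at 360 min, against 117, 134 and 131 CPM at 0 min (0.16 ± 0.049, adjusted p = 0.039). The groups were separate in all 3, and USP14 was called in 9 of the 17 alternative analyses. AKIRIN2, which carries proteasomes into the nucleus, was not called (0.10 ± 0.043, adjusted p = 0.13).

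Upstream of the proteasome, 0 of 6 ubiquitin and E1 genes were called higher by edgeR at 360 min (1 by DESeq2, 0 by voom and 1 at an unadjusted p under 0.05) and 1 was lower. Of 15 tested shuttle factors and partners of the unfoldase VCP, 4 were higher and 1 lower, against 8.89% and 9.19% of all genes. RAD23B, a shuttle factor, had 282, 275 and 281 CPM at 360 min, against 261, 264 and 251 CPM at 0 min (0.11 ± 0.033, adjusted p = 0.035). Its groups did not overlap, and it was called in 7 of the 17 alternative analyses. DDI2, the protease that cleaves NRF1, had 218, 223 and 209 CPM at 360 min, against 170, 195 and 186 CPM at 0 min (0.24 ± 0.047, adjusted p = 0.0035). VCP had 762, 770 and 772 CPM at 360 min, against 695, 721 and 705 CPM at 0 min (0.12 ± 0.031, adjusted p = 0.017), and was called in 9 of the 17 alternatives.

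In the NRF1 pathway, a list of 10 genes that shares DDI2 and VCP with the one above, 4 were higher and 1 lower at 360 min, against 8.89% and 9.19% of all genes. NFE2L1 itself had 391, 378 and 378 CPM at 360 min, against 369, 405 and 392 CPM at 0 min (−0.02 ± 0.053, adjusted p = 0.81), with overlapping groups. MAFG, a small partner of NRF factors on DNA, was called in both directions: its CPM were 48.0, 47.3 and 46.1 at 0 min, 39.2, 39.5 and 43 at 30 min (adjusted p = 0.041 against 0 min) and 59.3, 55.6 and 58.8 at 360 min (0.30 ± 0.044, adjusted p = 0.00054 against 0 min). SYVN1, a ubiquitin ligase of the endoplasmic reticulum, had 74.3, 73.9 and 77.2 CPM at 360 min, against 63.9, 61.8 and 64.2 CPM at 0 min (0.25 ± 0.044, adjusted p = 0.0018). NFE2L3, a relative of NFE2L1, had 27.2, 28.1 and 30.2 CPM at 360 min, against 34.9, 36.6 and 36.8 CPM at 0 min (−0.34 ± 0.050, adjusted p = 0.00048). The groups did not overlap in MAFG, SYVN1 or NFE2L3 at 360 min.

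Of 17 genes of antigen presentation by MHC class I, which receives peptides made by the proteasome, 2 were higher and 2 lower at 360 min, against the same 8.89% and 9.19%. CANX, a chaperone of class I heavy chains and many other glycoproteins, had 1410, 1370 and 1450 CPM at 360 min, against 1170, 1230 and 1200 CPM at 0 min (0.24 ± 0.035, adjusted p = 0.00049). HLA-C (−0.15 ± 0.046, adjusted p = 0.034) and HLA-E (−0.12 ± 0.037, adjusted p = 0.047) were lower, and were called in 9 and 7 of the 17 alternative analyses. The median log2 fold change of the list was −0.07.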

How the data were processed

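The authors deposited 1 table of whole-number counts per gene and library (60612 rows, 12 columns). The submitters' processing notes name GRCh38, HISAT2 and DESeq2 without roles or versions. For the counting program, annotation and strand setting, the sources used here give nothing. Of the 46 members, 12 share at least 10% of their exon length with another gene model. Without them 13 of 34 were called higher at 360 min, against 8.89% of all genes tested.

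The deposited counts went unchanged into edgeR 4.0.16 (R 4.3.3): filterByExpr by group (17779 genes), TMM factors of 0.981 to 1.014, 1 quasi-likelihood fit over all 12 libraries with 8 residual degrees of freedom, and Benjamini-Hochberg adjustment over all genes. The 3 replicates of a group are called biological by the study, and p-values measure the spread between them. Log2 fold changes carry standard errors (SE). CPM are TMM-scaled; CPM per kb divides them by the length of all annotated exons (GENCODE 29) or, where named, of the APPRIS principal transcript. Members and lists were chosen with earlier results of these data known. Values per library are given for the called members, the catalytic and inducible subunits, activators and inhibitor, the 3 smallest p-values where none was called, and up to 4 genes of each other list. A few more members (PSMC5, PSMD4, PSMD10, PSMD14) were picked after their values were seen. Some genes counted in the other lists are not reported here by name.

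Alternatives were DESeq2 1.42.0, limma voom (limma 3.58.1), RLE or total-count scaling, no or a stricter filter (at least 1 CPM in 3 libraries and 100 counts), fits of only the groups compared, a block for the replicate number, a term for the mitochondrial share (gap at 3%) or either set alone, other gene lengths, and leaving out each library.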

Additional observations from a re-analysis of the deposited data

Results flagged for a closer look

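The change of 16 proteasome genes differed between exposure times: their level at 360 min was higher than at 30 min when that difference was tested directly, with an adjusted p under 0.05 in edgeR's quasi-likelihood test over all genes. Of all genes tested, 11.4% were called higher in the same comparison. The genes include 5 of the 6 ATPases, and the largest difference (0.24 on the log2 scale) was shared by PSMC3 and PSMC6. Exposure and elapsed time cannot be told apart in this comparison.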

How the results depend on the processing

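The count of 17 proteasome genes called at 360 min against 0 min became 19 with DESeq2, 18 with voom, 16 with RLE and 13 with total-count scaling. It was 8 without a filter, 11 within the libraries of low mitochondrial share, 0 within those of high share, and 8 to 11 without single replicates; fewer samples enter the last 3. Against 30 min the 16 became 10 without a filter, 10 at low and 1 at high share, and 12 to 18 without single replicates. No member was called at 10 or 30 min under any of these alternatives. The cause of the loss without a filter was not tested. For DESeq2, voom, RLE, total-count scaling and no filter, counts over all genes at 360 min are not given here.

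Whether replicate numbers pair the libraries could not be settled. Deviations of same-numbered libraries from their group means correlated at −0.17 to 0.15, those of differently numbered ones at −0.20 to 0.22. Correlations above 0.1 were found in 5 of 18 same-numbered and 6 of 36 differently numbered pairs. With the replicate number as a block 13 members were called at 360 min and 16 against 30 min.

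Single genes reversed at high share only, each with 1 library a time: PSMB5 −0.057, PSMB8 −0.018, PSMB9 −0.534 and PSMB7 −0.004. Without single replicates PSMB9 ran from −0.186 to 0.465 (−0.127 without 360 min replicate 2) and PSME1 from −0.082 to 0.005. The PSMB10 share at 360 min minus 0 min ran from −0.173 to 0.307 percentage points, the highest without 360 min replicate 1.

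Counts over all genes moved more. At 10 min against 0 min the 3 calls became 177 with DESeq2, 9 without a filter, 7 with the compared groups alone, 6 with the replicate block, 12 at high share and 1 to 25 without single replicates. At 30 min against 0 min the 136 became 271 with DESeq2, 67 with those groups alone, 84 at low and 22 at high share, and 61 to 163 without single replicates. For 30 against 10 min the 102 became 293 with DESeq2, 30 at high share and 39 to 83. At 360 min against 0 min 277 were called at high share and 2281 to 2714 without single replicates. Against 30 min 2331 were called at low and 669 at high share, and 3024 to 3481 without single replicates. PSMB9, with 15 to 42 counts per library, is limited by depth.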
